A study of Homo sapiens with 9 samples.

Results

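Genes for the synthesis, storage, uptake and breakdown of catecholamines were followed in LAN5 cells, an established line from a human neuroblastoma in which the MYCN gene is amplified. The 9 genes TH, GCH1, DDC, DBH, CYB561, SLC18A1, SLC18A2, SLC6A2 and MAOA were taken by their symbols from a table of 25084 genes, and all 9 had a row. The cells had been electroporated with small interfering RNAs (siRNAs, which direct the degradation of a matching transcript) and total RNA was taken after 72 h in medium with serum. The 9 libraries form 3 groups of 3: siCTR, the control; siMYCN_2, directed at MYCN; and siHAND2_3, directed at HAND2. The labels give no other genotype or agent, and do not explain the numbers in siMYCN_2 and siHAND2_3. Each target has 1 such label in 1 cell line, so an effect of the siRNA on other transcripts cannot be told apart from the effect of its target. By its title, the study set out to find the genes that HAND2 and MYCN regulate in LAN5 cells; both are helix-loop-helix transcription factors. The labels do not say that the libraries of a group came from separate cultures, so p-values measure only the spread between these libraries, which may be technical.

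Noradrenaline is made from tyrosine in steps that these genes encode. Tyrosine hydroxylase (TH) makes dopa with the cofactor tetrahydrobiopterin, whose synthesis begins with GTP cyclohydrolase (GCH1). Dopa decarboxylase (DDC) makes dopamine, and the vesicular monoamine transporters (SLC18A1 and SLC18A2, also called VMAT1 and VMAT2) carry it into secretory vesicles. There dopamine beta-hydroxylase (DBH) makes noradrenaline with electrons from ascorbate, which cytochrome b561 (CYB561) passes across the vesicle membrane. The noradrenaline transporter (SLC6A2) takes released noradrenaline back into the cell, and monoamine oxidase A (MAOA) oxidises it. Neuroblastoma arises from the sympathetic lineage, and the excretion of catecholamine metabolites and the uptake of labelled noradrenaline analogues through SLC6A2 are used in its diagnosis.

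Values are CPM, the reads of a gene for every 1 M reads assigned to genes in that library. Libraries held about 21.1 to 32.7 M such reads. This was judged by the most frequent low value, taken as 1 read, or as more where that gave clearly more whole multiples. By these depths the counting error at 1 CPM (its coefficient of variation) was 17.5% to 21.8%. Only 80.1% to 81.4% of low values were whole multiples of the step, so read numbers and counting errors given below are approximate. MYCN transcript in siMYCN and siHAND2 stood at 70.0% and 49.6% of its siCTR mean, and HAND2 transcript at 114% and 54.2%. Each siRNA thus went with a lower level of its target in 3 of 3 libraries, and the siHAND2 libraries had less MYCN transcript than the siMYCN libraries. Of 14 sympathoadrenal and neuronal markers, 13 were in the table and 12 reached the expression filter used for testing, and their summed level was 2973 to 3107 CPM in siCTR. Glial, endothelial and immune markers summed to at most 3.44, 1.49 and 0.724 CPM in any library, and PECAM1, CDH5 and PTPRC stayed at or under 0.1 CPM in all 9.

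Most of the catecholamine genes moved in opposite directions in the knockdowns. In siMYCN, 8 of the 8 members that could be tested rose, against 24.5% of all 14495 tested genes that were called higher. In siHAND2, 7 of the 8 fell and GCH1 did not pass, against 11.8% of all tested genes that were called lower. In either direction, 35.9% of the tested genes were called in siMYCN and 29.9% in siHAND2. The members were chosen with earlier results of these data known. Here and below, the shares over all tested genes therefore cannot tell how unusual the member counts are. The tests were made with limma on log2(CPM + 1) over genes that reached 1 CPM in 3 or more libraries, and a gene was called at a Benjamini-Hochberg adjusted p under 0.05. The median change of the 8 members was 0.40 in siMYCN and -0.40 in siHAND2 on the log2 scale, where the medians over all tested genes were 0.06 and 0.04. Both comparisons use the same siCTR libraries. SLC18A2, the other member, reached 1 CPM in only 2 libraries and was not tested.

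Rescaling by median ratios or by quantiles, which sets the median gene near 0, changed none of these calls or directions. Both did change the balance over all genes: of the genes called in siMYCN, 68.3% were higher in the deposited scale, 51.2% with median ratios and 49.3% with quantiles. For siHAND2 these shares came to 60.6%, 47.1% and 47.8%. The range of the member changes was 0.30 to 1.25 in siMYCN and -1.01 to -0.05 in siHAND2.

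**Figure D1:**
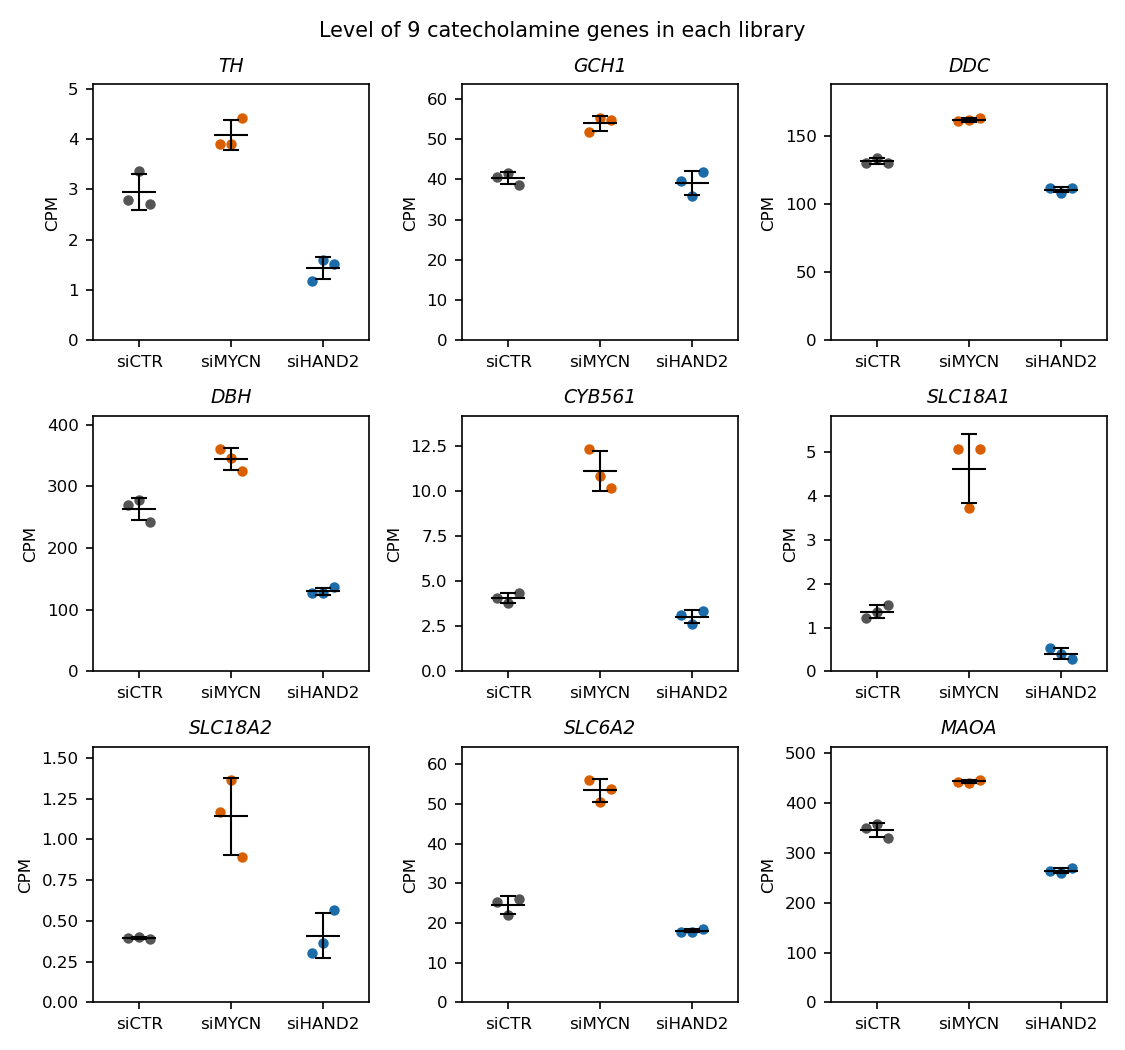
CPM (linear axis from 0) of each of the 9 catecholamine genes in the 3 libraries of each group; points are libraries, the long bar is the mean and the error bar the SD (n = 3). In all 9 genes the siMYCN libraries lie above the siCTR libraries, and in 7 genes the siHAND2 libraries lie below them, with GCH1 and SLC18A2 as the exceptions.

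The 3 siMYCN libraries lay above the 3 siCTR libraries for all 9 members, SLC18A2 included, which 33.4% of the tested genes also did. The 3 siHAND2 libraries lay below the 3 siCTR libraries for 7 members, which 16.6% of the tested genes also did. Mesenchymal markers moved with the siHAND2 group too: of 12 such genes, all in the table and 10 tested, 7 were called higher and 1 lower in siHAND2, and 7 higher and none lower in siMYCN. Their summed level was 508 to 519 CPM in siCTR, 585 to 615 in siMYCN and 897 to 997 in siHAND2, none of them was under 0.1 CPM in every library, and their part in the member changes was not tested. The sympathoadrenal markers summed to 3544 to 3678 CPM in siMYCN and 3270 to 3403 in siHAND2, above siCTR in both, with 8 of 12 called higher in siMYCN and 4 higher and 2 lower in siHAND2. Of all tested genes, 24.5% were called higher and 11.4% lower in siMYCN, and 18.1% higher and 11.8% lower in siHAND2. In such bulk RNA, fewer expressing cells and less transcript per cell cannot be told apart.

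**Figure D2:**
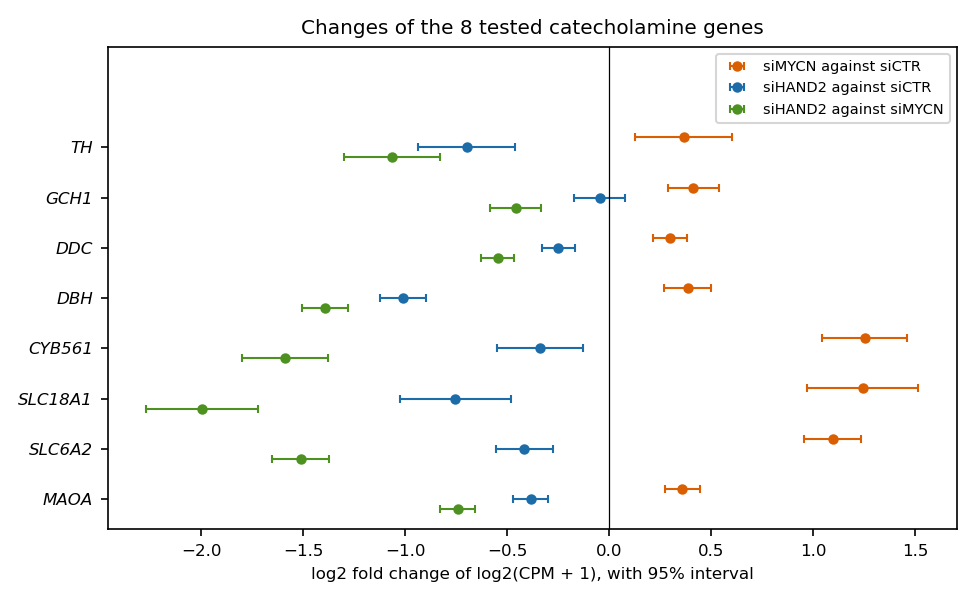
Change of each tested catecholamine gene on the log2(CPM + 1) scale with its 95% interval (limma) in the 3 comparisons; the vertical line marks no change. Changes in siMYCN lie to the right of 0 and those in siHAND2 to the left, apart from GCH1 in siHAND2, whose interval of -0.17 to 0.08 spans 0.

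Tyrosine hydroxylase, the rate-limiting enzyme of the pathway, was expressed at a low level. TH (chromosome 11, 2163929 to 2171815, minus strand; all coordinates are GRCh38) stood at 2.78, 3.37 and 2.70 CPM with the control siRNA, at 3.91, 3.91 and 4.42 with siMYCN and at 1.18, 1.59 and 1.52 with siHAND2. The groups did not overlap: the highest siHAND2 library stood under the lowest siCTR library and the highest siCTR library under the lowest siMYCN library. Averages were 2.95 ± 0.363, 4.08 ± 0.295 and 1.43 ± 0.219 CPM (n = 3 libraries each, errors are SD), so that siHAND2 kept 48.6% of the siCTR mean. TH rose by 0.36 in siMYCN (standard error 0.11, limma, adjusted p = 0.0179) and changed by -0.70 in siHAND2 (adjusted p = 0.000174). The rise rested on few reads (36 to 129 per library) and its call was lost when 1 of 3 libraries was left out, namely siCTR replicate 1 (0.33), replicate 3 of siCTR (0.32) or replicate 3 of siMYCN (0.32), with adjusted p of 0.0637 to 0.0786, and with no filter on low values (adjusted p = 0.0522). Adding 5 CPM in place of 1 to each value gave 0.19 in siMYCN and -0.31 in siHAND2, both called.

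GCH1, the first enzyme of tetrahydrobiopterin synthesis, rose in siMYCN and was the 1 tested member not called in siHAND2. It lies on chromosome 14 (54842008 to 54902826, minus strand) and stood at 40.7, 41.6 and 38.6 CPM with the control siRNA, at 51.8, 55.2 and 54.8 with siMYCN and at 39.4, 35.8 and 41.8 with siHAND2. The siMYCN libraries stood above all 6 others, while the siHAND2 and siCTR libraries overlapped. GCH1 rose by 0.41 in siMYCN (standard error 0.06, limma, adjusted p = 5.06e-05). In siHAND2 the difference was -0.05, with a 95% interval of -0.17 to 0.08 (adjusted p = 0.582), and it was 0.01 without siHAND2 replicate 2.

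DDC, which turns dopa into dopamine, had the most even replicates of the synthesis enzymes. DDC (chromosome 7, 50458436 to 50565405, minus strand) stood at 130.5, 134 and 130.1 CPM with the control siRNA, at 161, 162 and 163 with siMYCN and at 111, 108 and 112 with siHAND2. All 3 groups stood apart, although the steps between them were small. The change was 0.30 in siMYCN (standard error 0.04, limma, adjusted p = 1.87e-05) and, for siHAND2, -0.25 (adjusted p = 0.000121), which put the means at 1.23 times and 84.0% of siCTR.

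DBH, the enzyme that makes noradrenaline inside the vesicle, had the largest siHAND2 fall of the 8 tested members on the log2(CPM + 1) scale; as ratios of means the falls of SLC18A1 and TH were larger, as was that of SLC18A1 with 0.1 CPM added. The gene (chromosome 9, 133636363 to 133659329, plus strand) stood at 270.0, 277 and 243 CPM with the control siRNA, at 361, 346 and 325 with siMYCN and at 127, 127 and 137 with siHAND2. Every siHAND2 library stood near the middle between 0 and the siCTR level, and every siMYCN library above the highest siCTR library. Averages came to 263 ± 18.2, 344 ± 18.1 and 130.1 ± 5.65 CPM (SD, n = 3 libraries each). With siHAND2 the change in DBH was -1.01 (adjusted p = 6.84e-10 by limma, standard error 0.05), which left 49.4% of the siCTR mean. That change was number 39 from the lowest among the 14495 tested genes. The rise in siMYCN was 0.38 (adjusted p = 4.46e-05, standard error 0.05). At 3174 to 9471 reads per library, the counting coefficient of variation was at most 1.77%.

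CYB561, the vesicle membrane protein that supplies DBH with electrons, rose more than DBH in siMYCN and fell less in siHAND2. CYB561 (chromosome 17, 63432304 to 63446354, minus strand) stood at 4.07, 3.82 and 4.37 CPM with the control siRNA, at 12.4, 10.9 and 10.2 with siMYCN and at 3.12, 2.63 and 3.33 with siHAND2. The siMYCN libraries were all above 10 CPM and the 6 others all below 5. CYB561 rose by 1.25 in siMYCN (standard error 0.10, limma, adjusted p = 1.47e-07), from 4.08 ± 0.274 to 11.1 ± 1.12 CPM, a 2.73-fold difference of the means. Only 5 of the 14495 tested genes rose more on this scale. With 5 CPM added in place of 1, the changes of CYB561 were 0.83 in siMYCN and -0.18 in siHAND2, both called. In siHAND2 it changed by -0.34 (adjusted p = 0.0166), a call that was lost without siCTR replicate 3 (-0.30, adjusted p = 0.0581) or siHAND2 replicate 2 (-0.27, adjusted p = 0.0823) and with no filter on low values (adjusted p = 0.0536).

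The stretches before the start sites of these 2 genes are shown because their products act together in the vesicle, while DBH had the larger change of the 2 in siHAND2 and CYB561 in siMYCN, and because MYCN and HAND2 belong to a protein class that binds E-boxes (CANNTG, of which CACGTG is the form typical of MYC proteins). They are taken from RefSeq (GRCh38.p14) and read 5′ to 3′ on the gene's strand, and capitals mark each CANNTG. The DBH stretch is chr9:133636113-133636362, the 250 bases before the start site. The CYB561 stretch is chr17:63446355-63446556, the outer 202 bases of the 250 before 1 of 4 listed starts. The inner 48 bases overlap an annotated exon and were left out. That start was picked because its window held CACGTG, which the windows of the other CYB561 starts did not. Another listed CYB561 start, with its window at chr17:63446640-63446889, lies upstream of the whole printed stretch. The stretch is thus downstream of that other start.
DBH: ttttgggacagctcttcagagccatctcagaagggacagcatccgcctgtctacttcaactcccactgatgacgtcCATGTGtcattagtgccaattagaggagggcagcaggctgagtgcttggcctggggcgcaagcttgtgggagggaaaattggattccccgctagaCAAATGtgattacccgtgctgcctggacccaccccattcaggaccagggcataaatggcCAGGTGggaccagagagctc
CYB561: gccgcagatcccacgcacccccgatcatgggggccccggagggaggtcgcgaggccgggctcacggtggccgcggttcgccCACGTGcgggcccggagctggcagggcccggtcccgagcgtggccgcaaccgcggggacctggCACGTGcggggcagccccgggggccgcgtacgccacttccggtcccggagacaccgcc

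The DBH stretch held 3 matches to CANNTG, beginning 174 (CATGTG), 79 (CAAATG) and 20 (CAGGTG) bases before the start, and no CACGTG. The CYB561 stretch held 2, both CACGTG, beginning 169 and 106 bases before the start. Each motif is its own reverse complement as searched, so 1 strand covers both. Of 35116 RefSeq windows of 250 bases, 61.8% held at least 1 CANNTG and 6.34% at least 1 CACGTG, which is itself a CANNTG. A further form, CATCTG or its reverse complement CAGATG, was also searched for. It was in neither printed stretch and in 12.2% of the RefSeq windows. Because the CYB561 window was picked for its CACGTG, these shares cannot tell how unusual its matches are. RefSeq windows were at hand for 5 members (DBH, DDC, SLC18A2, CYB561 and MAOA, 9 windows), and the CYB561 window above was the 1 of the 9 with a CACGTG. These are matches of letters in a window, not evidence of binding, and neither factor's binding was measured.

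The 2 vesicular monoamine transporters had, per kb of exon, the lowest means of the members in every group. In siMYCN, though, the SLC18A1 libraries (0.951 to 1.30 CPM per kb) overlapped those of TH (1.23 to 1.39). SLC18A1 (chromosome 8, 20144855 to 20183206, minus strand) stood at 1.22, 1.35 and 1.52 CPM with the control siRNA, at 5.07, 3.72 and 5.07 with siMYCN and at 0.526, 0.398 and 0.284 with siHAND2. The groups stood far apart, and even the lowest siMYCN library lay well above the highest siCTR library. Averages were 1.36 ± 0.148, 4.62 ± 0.781 and 0.403 ± 0.121 CPM (SD, n = 3 libraries each), which is 3.39 times the siCTR mean in siMYCN and 29.5% of it in siHAND2. SLC18A1 rose by 1.24 in siMYCN (standard error 0.13, limma, adjusted p = 2.26e-06), number 8 from the highest among the tested genes, and changed by -0.75 in siHAND2 (adjusted p = 0.000325). As with any gene near 1 CPM, the size on the log2 scale depends on the constant that is added: with 0.1 in place of 1 CPM the changes were 1.68 and -1.56, with 5 CPM they were 0.59 and -0.24, and all were called. The lowest siHAND2 library held about 8 reads of this gene, for which counting alone gives a coefficient of variation of 35.4%.

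SLC18A2 (chromosome 10, 117241093 to 117279430, plus strand), the form used by most brain monoamine neurons, stood at 0.396, 0.399 and 0.389 CPM with the control siRNA, at 1.17, 1.36 and 0.894 with siMYCN and at 0.303, 0.364 and 0.564 with siHAND2. The siMYCN libraries stood above the 6 others, and the siHAND2 libraries lay on both sides of siCTR. When the filter on low values was dropped, limma gave SLC18A2 0.61 for siMYCN (adjusted p = 0.00051) and 0.01 for siHAND2 (adjusted p = 0.959). About 8 to 36 reads per library lay behind these values.

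SLC6A2, the transporter that returns noradrenaline to the cell, was also among the strongest responders to siMYCN. SLC6A2 (chromosome 16, 55655604 to 55706192, plus strand) stood at 25.4, 22.0 and 26.1 CPM with the control siRNA, at 56.1, 50.4 and 53.7 with siMYCN and at 17.8, 17.8 and 18.5 with siHAND2. No 2 groups overlapped. Averages were 24.5 ± 2.21, 53.4 ± 2.83 and 18.1 ± 0.366 CPM (SD, n = 3 libraries each). It rose by 1.10 in siMYCN (standard error 0.07, limma, adjusted p = 1.48e-08), 2.18-fold in the means and number 22 from the highest among the tested genes. The change in siHAND2 was -0.42 (adjusted p = 0.000164), to 73.8% of the siCTR mean.

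MAOA, the mitochondrial enzyme that breaks down noradrenaline and serotonin, followed the synthesis enzymes in direction. MAOA (chromosome X, 43654907 to 43746824, plus strand) stood at 350.4, 358 and 331 CPM with the control siRNA, at 443, 441 and 447 with siMYCN and at 265, 259 and 270.3 with siHAND2. All 3 groups stood apart with little spread. It rose by 0.36 in siMYCN (standard error 0.04, limma, adjusted p = 4.88e-06) and changed by -0.39 in siHAND2 (adjusted p = 1.82e-06), to 1.28 times and 76.4% of the siCTR mean.

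The members differed in the size of their changes. In siMYCN the 95% intervals of CYB561, SLC18A1 and SLC6A2 all lay above 0.95 on the log2(CPM + 1) scale, while those of TH, DBH, DDC, GCH1 and MAOA all lay below 0.61. As ratios of mean CPM, the vesicle and membrane proteins SLC18A1, SLC18A2, CYB561 and SLC6A2 were 2.18 to 3.39 times their siCTR level, and the 5 enzymes 1.23 to 1.38 times. In siHAND2 another set stood out: SLC18A1, TH and DBH were left with 29.5%, 48.6% and 49.4% of their siCTR means, and SLC6A2, CYB561, MAOA and DDC with 73.8% to 84.0%. No test of one gene's change against another's was made.

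In the direct comparison of siHAND2 with siMYCN, the fold changes do not use the siCTR libraries. The p-values do, because the spread was estimated over all 9 libraries. With the 2 groups alone, 3397 genes were called in place of 3892, and the members called stayed 8. All 8 tested members were lower in siHAND2, against 15.5% of all tested genes called lower (26.9% in either direction), and in all 9 members the 3 siHAND2 libraries lay below the 3 siMYCN libraries, as they did in 21.6% of the tested genes. The median change of the 8 was -1.23, where that over all tested genes was -0.01. SLC18A1 differed by -2.00 (standard error 0.13, limma, adjusted p = 4.67e-09), number 11 from the lowest among 14495 genes, and its siMYCN mean was 11.5 times its siHAND2 mean. CYB561 differed by -1.59 (adjusted p = 2.91e-09), SLC6A2 by -1.51 (adjusted p = 4.23e-11) and DBH by -1.39 (adjusted p = 1.13e-11), numbers 29, 34 and 41 from the lowest. The order of these members depends on the constant added: with 5 CPM SLC18A1 differed by -0.83, behind DBH (-1.37), SLC6A2 (-1.34) and CYB561 (-1.01), and with 0.1 CPM by -3.25. TH differed by -1.06 (adjusted p = 1.8e-06; -0.50 with 5 CPM added), MAOA by -0.74 (adjusted p = 4.94e-10), DDC by -0.55 (adjusted p = 1.31e-08) and GCH1 by -0.46 (adjusted p = 1.68e-05). None of the 142 refits of these 8 genes under other settings or with 1 library left out lost the call or turned the direction.

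**Figure D3:**
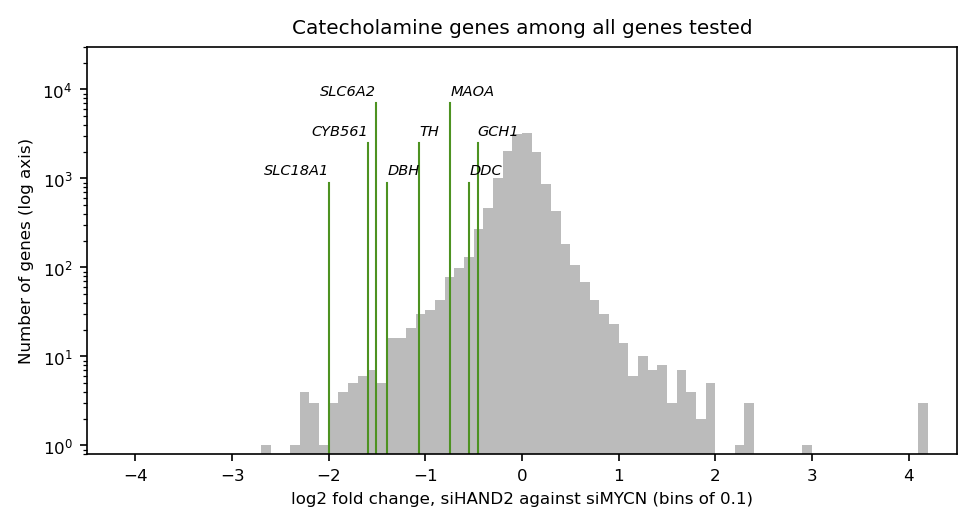
Number of genes (log axis) by their change between siHAND2 and siMYCN in bins of 0.1 on the log2(CPM + 1) scale, over 14495 tested genes, with green lines at the 8 tested catecholamine genes. All 8 lines lie left of 0, between -2.00 (SLC18A1) and -0.46 (GCH1).

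Levels of the members were compared with each other after division by the length of their annotated exons (the union over all GENCODE transcripts, which is at least as long as any 1 transcript). In siCTR, DBH was the highest at 95.9 ± 6.62 CPM per kb (SD, n = 3 libraries), followed by DDC (42.6 ± 0.67), MAOA (26.6 ± 1.09), GCH1 (13.8 ± 0.533), SLC6A2 (3.04 ± 0.275), TH (0.928 ± 0.114), CYB561 (0.771 ± 0.0517), SLC18A1 (0.349 ± 0.038) and SLC18A2 (0.0956 ± 0.0012). No neighbours in this order overlapped over their siCTR libraries, and the order from DBH to SLC6A2 was the same in the other groups. The order depends on the lengths used, which were 13010 bp for MAOA and 2746 bp for DBH. Before the division MAOA had a higher siCTR mean than DBH (346 against 263 CPM). CYB561 likewise stood above TH (4.08 against 2.95 CPM). TH and CYB561 traded places in both knockdowns, in siMYCN with 1.28 ± 0.0929 CPM per kb for TH and 2.10 ± 0.211 for CYB561. In siHAND2 their libraries overlapped, at 0.372 to 0.501 CPM per kb for TH and 0.496 to 0.629 for CYB561. Transcripts of the rate-limiting enzyme and of both vesicular transporters therefore stood below those of DBH and DDC in every group.

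Some members share their locus with other annotated genes, and the strand setting of the counting is not given in the sources used here. AC136621.1 lies within SLC6A2 on the same strand over 2074 bp and went from 10.4 ± 0.375 to 22.3 ± 0.829 CPM in siMYCN and 6.83 ± 0.685 in siHAND2, changes of 1.04 and -0.54 (limma, adjusted p = 8.25e-08 and 5.26e-05), so reads of the 2 may have been split. DBH-AS1, on the other strand over 2728 bp of DBH, stood at 1.96 ± 0.19 CPM in siCTR and 1.03 ± 0.216 in siHAND2 (-0.55, adjusted p = 0.00217), and 2.16 ± 0.144 in siMYCN (0.09, adjusted p = 0.573). FIGNL1, whose annotated span covers 84100 bp of DDC on the same strand, stood at 70.0 to 75.5 CPM in the group means. It had differences of 0.06 and 0.11 and was called in neither knockdown. Whether reads of FIGNL1 and DDC were split was not tested. PDZD8 overlaps SLC18A2 by 2157 bp on the other strand at 82.3 to 88.3 CPM in the group means, with differences of -0.05 and -0.10 that were not called.

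The wider pathway was described with 60 genes in 6 lists, of which 44 were in the table and 31 were tested. In siMYCN, 5 of these 31 rose, 9 fell and 17 did not pass, with a median change of -0.02. In siHAND2, 4 rose, 9 fell and 18 did not pass, with a median of -0.10. These shares of rises (16.1% and 12.9%) and falls (29.0% in each) stood beside 24.5% and 18.1% of all tested genes called higher and 11.4% and 11.8% called lower. The 8 members and these neighbours thus gave different counts, though the difference between the lists was not tested. Members and lists were both chosen with earlier results of these data known.

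Among 6 tested genes that make or recycle tetrahydrobiopterin, 1 rose in siMYCN, and 1 rose and 1 fell in siHAND2. PCBD2, a dehydratase that helps recycle the cofactor, went from 15.3 ± 1.14 CPM to 19.5 ± 0.817 with siMYCN and to 19.5 ± 0.973 with siHAND2 (SD, n = 3 libraries each), changes of 0.33 in both (limma, adjusted p = 0.00136 and 0.0017). QDPR, the reductase that regenerates it, fell from 46.5 ± 1.98 to 41.2 ± 2.38 CPM in siHAND2 (-0.17, adjusted p = 0.0277), a call lost when siCTR replicate 1 or 2 or siHAND2 replicate 2 or 3 was left out (adjusted p of 0.0734 to 0.11) and with no intensity trend in the fit (adjusted p = 0.0565).

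Of 6 tested genes for breakdown and conjugation, 4 fell in siMYCN and 4 in siHAND2, and none rose in either. Among those called in siMYCN, SULT1A3, named after its values were seen, has a near-identical copy (SULT1A4) and is uncertain. ALDH2, which oxidises the aldehydes that monoamine oxidase leaves, fell from 99.9, 93.5 and 91.5 CPM with the control siRNA to 52.5, 51.9 and 49.9 with siHAND2 (-0.87, limma, adjusted p = 6.27e-09), and stood at 98.2 ± 7.63 CPM in siMYCN (0.05, adjusted p = 0.559), a difference whose sign turned under both other scalings. AKR1A1, an aldehyde reductase, changed by -0.33 in siMYCN (adjusted p = 0.000261) and by -0.20 with siHAND2 (adjusted p = 0.0139); this second call was lost without siCTR replicate 2 (-0.16, adjusted p = 0.0822) and without siHAND2 replicate 1 (-0.17, adjusted p = 0.0544). MAOB, the other monoamine oxidase, stayed at or under 0.279 CPM in every library.

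Substrate and cofactor supply gave 2 rises and 4 falls in siMYCN and 3 falls in siHAND2 among 13 tested genes. ATP7A, the copper pump that loads copper enzymes such as DBH in the secretory pathway, stood at 118, 113 and 119 CPM with the control siRNA, at 153, 159 and 166 with siMYCN and at 77.2, 76.1 and 86.6 with siHAND2. Its 3 groups stood apart in the same order as those of DBH, with changes of 0.44 in siMYCN (standard error 0.05, limma, adjusted p = 7.33e-06) and, for siHAND2, -0.54 (adjusted p = 7.33e-07). SLC7A5, a subunit of the main carrier of large neutral amino acids such as tyrosine, changed by -0.60 in siMYCN (adjusted p = 3.8e-06) and -0.28 in siHAND2 (adjusted p = 0.00396), from 110.1 ± 2.65 CPM in siCTR to 72.8 ± 8.02 and 90.6 ± 5.11. SLC16A10, a carrier of aromatic amino acids, went from 6.15 ± 0.464 CPM to 3.82 ± 0.659 in siMYCN (-0.58, adjusted p = 0.000587; -0.34 with 5 CPM added). In siHAND2 SLC16A10 stood at 5.13 ± 0.465 CPM (-0.22, adjusted p = 0.131), a difference that was called with quantile scaling (-0.30, adjusted p = 0.0452).

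DNAJC12, a co-chaperone of the aromatic amino acid hydroxylases that include TH, was the 1 tested gene of 7 related enzymes and helpers. It stood at 37.02, 39.5 and 34.6 CPM with the control siRNA, at 20.7, 23.5 and 22.6 with siMYCN and at 24.3, 23.3 and 29.7 with siHAND2. All 6 knockdown libraries lay below the siCTR libraries, with changes of -0.71 in siMYCN (standard error 0.08, limma, adjusted p = 5.42e-06) and, for siHAND2, -0.51 (adjusted p = 0.000143), so in siMYCN it moved opposite to TH. PNMT, which turns noradrenaline into adrenaline, stayed at or under 0.206 CPM. SLC29A4, a low-affinity monoamine carrier and the 1 tested gene of the other amine carriers, rose by 0.30 in siMYCN (adjusted p = 0.00428) and 0.48 in siHAND2 (adjusted p = 0.000103), from 33.6 ± 2.65 CPM to 41.5 ± 1.35 and 47.2 ± 4.98. The dopamine transporter SLC6A3 stayed at or under 0.122 CPM. Of 4 tested adrenergic and dopamine receptor genes, 1 rose in siMYCN (ADRA1A) and 2 in siHAND2 (ADRA1A and ADRA2A); both had a mean below 5 CPM and were named after their values were seen.

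**Figure D4:**
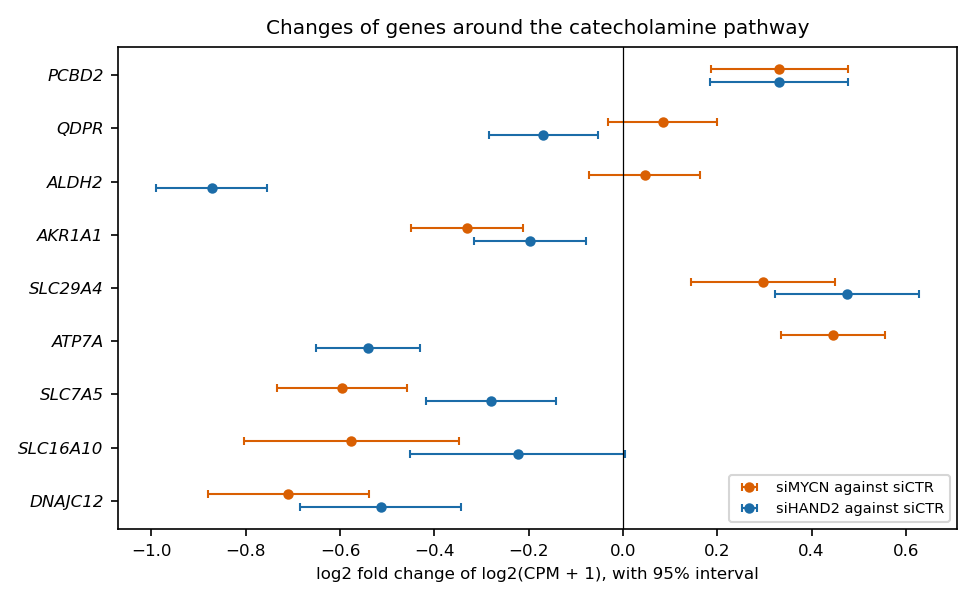
Change of 9 genes around the catecholamine pathway on the log2(CPM + 1) scale with 95% intervals (limma) in siMYCN and siHAND2 against siCTR; the vertical line marks no change. ATP7A lies on opposite sides of 0 in the knockdowns (0.44 and -0.54), while SLC7A5 (-0.60 and -0.28) and DNAJC12 (-0.71 and -0.51) lie left of 0 in both.

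Likeness of profile was measured as the root mean square difference of log2(CPM + 1) over the 9 libraries after the siCTR mean of each gene was subtracted, among tested genes whose mean reached 5 CPM. The nearest of 11200 genes to CYB561 was another member, SLC6A2, at 0.13, where the median gene stood at 0.74. Next came SEMA3C, a secreted semaphorin, at 0.18. SLC6A2 itself was nearest to AC136621.1 within it (0.11) and then to CHRNA3, a nicotinic acetylcholine receptor subunit of autonomic neurons (0.12), which went from 109 CPM in siCTR to 206 in siMYCN and 83.5 in siHAND2. DBH was nearest to NRCAM, a neural adhesion molecule, and CDC5L, a splicing factor (0.10 and 0.11), DDC to ITM2B and SNAP91 (0.03 and 0.04), GCH1 to LHFPL2 and PRKCA (0.06 for each) and MAOA to RPS6KA2 and TMOD1 (0.03 for each). Among the 8 tested members, TH and SLC18A1 with means under 5 CPM included, DDC and MAOA were the closest pair at 0.09, followed by SLC6A2 and CYB561, while GCH1 and SLC18A1 were the farthest apart at 0.65.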

How the data were processed

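The authors deposited 1 table of CPM values for 9 libraries, in which every value carries an added 0.0001. The reads were aligned with STAR 2.5.1 and Partek was used, per the submitters' processing notes, which name hg19; the table's gene positions instead match GRCh38 (91.4% of 18215 symbols start within 5000 bp of RefSeq), so they are given as GRCh38. The counting tool, strand setting and annotation are not given in the sources used here. Of low CPM values, 80.1% to 81.4% were whole multiples of a step within 0.02, under the 95% set for treating them as reads, so no count model was used.

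All 3 groups entered 1 limma 3.58.1 fit (R 4.3.3, eBayes with intensity trend, two-sided) of log2(CPM + 1), over the 14495 genes that reached 1 CPM in 3 or more libraries; errors are SDs or limma standard errors. A fold change on this scale understates changes of genes near 1 CPM. The fit was also run on simulated counts in which far fewer genes changed than were called here, and no result rests on that run. Exon lengths came from GENCODE v44. Genes of the wider lists are named when called against siCTR with a mean of at least 5 CPM, at most 3 per list, except that 1 gene the rule names is not reported here by itself; each called member with that mean is given its 2 nearest genes. The members and lists were chosen with earlier results of these data known. Alternatives were pseudocounts of 0.1 and 5, no filter or 5 CPM, median-ratio and quantile scaling, 2 groups alone, no trend, a replicate block and each library left out.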

Additional observations from a re-analysis of the deposited data

How the results depend on the processing

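The members called were 8, 7 and 8 for siMYCN, for siHAND2 and for the direct comparison of the knockdowns. Over 9 other settings they were 6 to 8, 5 to 7 and 6 to 9, and with each library left out 7 to 8, 6 to 7 and 8. The lowest counts came from the filter of 5 CPM, under which TH and SLC18A1 were not tested. Genes called over the whole table ranged with a library left out from 4013 to 5854, 3075 to 4290 and 2909 to 3940, and wider pathway genes from 11 to 14, 9 to 13 and 6 to 9. Of the called members, 138 of 142, 121 of 124 and 142 of 142 refits kept direction and call; the losses were TH in siMYCN and CYB561 in siHAND2. Among the genes reported, the differences that turned sign were all uncalled: GCH1 in siHAND2 (-0.097 to 0.012 with a library left out), ALDH2 in siMYCN (-0.012 after median-ratio rescaling, -0.0069 after quantile normalization, -0.00047 to 0.11 with a library left out), and between the knockdowns PCBD2 (0.015, 0.033 and -0.034 to 0.039 in the same order). The causes were not tested.

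Same-numbered libraries correlated in their deviations from the group means at 0.076 to 0.177 (siMYCN and siCTR), 0.039 to 0.173 (siHAND2 and siCTR) and -0.040 to 0.305 (siHAND2 and siMYCN). For libraries of different numbers the values were -0.168 to 0.035, -0.211 to 0.119 and -0.296 to 0.141. Each library correlated best with its own number in the first comparison. In the second only siCTR replicate 2 did not, and in the third replicate 2 of neither group did. Whether same-numbered libraries share a source was not tested, and the main fit did not pair them. With the replicate number as a block, 5895, 5089 and 4689 genes were called in place of 5209, 4339 and 3892, the members called stayed 8, 7 and 8, and the wider pathway genes were 14, 13 and 12. Depth limits SLC18A1, SLC18A2 and TH, the members with under 50 reads in some library.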
